A study of Mus musculus with 4 samples.

Results

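Transcripts of 9 genes that mark the layers of the developing cerebral cortex were followed in the brains of newborn mice whose mothers had received titanium dioxide nanoparticles (TiO2-NP) during pregnancy. The genes were Cux1, Cux2, Pou3f2 (Brn2), Rorb, Tbr1, Tle4, Fezf2, Bcl11b (Ctip2) and Eomes (Tbr2). Every array probe whose RefSeq accession belonged to 1 of these 9 genes was read, which gave 18 of the 55681 non-control probes on the array and 9 of the 20660 genes that could be named from RefSeq accessions. The rule read accessions and no measured value, but the 9 genes themselves were chosen with earlier results of these data known.

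Whole brains of C57BL/6J mice were taken on postnatal day 1. Dams had been given 25 µL of suspension into the trachea, holding 100 µg TiO2-NP per mouse (group TiO2-H), or the same volume of the particle-free supernatant (group Sham). The day of dosing was gestational day 10.5 in the sample protocol and 14 in the sample titles. Each of the 4 samples was RNA pooled from 2 pups of every dam, from 5 dams for Sham and 6 dams for TiO2-H. Each pool was hybridised to 1 one-colour array, with 1 array labelled male and 1 labelled female in each group. Both pools of a group drew on the same dams, so the arrays of a group do not stand for separate sets of litters. With 1 array per group no test was possible within a sex, and the smallest two-sided p that exact permutation of the 2 TiO2-H and 2 Sham arrays allows is 0.333. All values below come from the scanner's processed signal, and "scaled signal" is its log2 after division by the array's 75th percentile, so that 0 stands for that percentile.

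The neurons of the cortex are born from the inside outwards: deep layers first, then upper layers. Tbr1 and Tle4 are known for the deepest-layer neurons that project to the thalamus, Fezf2 and Bcl11b for large deep-layer neurons that project to the spinal cord, Rorb for neurons of the granular layer, and Cux1, Cux2 and Pou3f2 for the upper layers, while Eomes marks the intermediate progenitors from which many of these neurons arise. The factors restrain one another during development, as when Fezf2 and Tbr1 specify competing projection fates. They are also expressed elsewhere in the brain: Bcl11b is strong in the striatum, Eomes in the olfactory bulb and cerebellum, and Rorb in the thalamus. In whole brain, fewer cells of a type and less RNA per cell cannot be told apart.

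The stretches directly before a transcription start of Rorb, Eomes and Cux2 are shown because Rorb and Eomes held the only 2 probes whose interval did not include 0 in the comparison without a sex term, and Cux2 the largest difference among the brightest probes, as described further down. Each is 250 bases long, written 5′ to 3′ on the strand of the gene, from RefSeq on build GRCm38.p6. CpG dinucleotides are in capitals, since CpG methylation was the other readout of the study and was not analysed here. Rorb lies on the minus strand at chr19:19111197-19111446, Eomes on the plus strand at chr9:118477939-118478188, and Cux2 on the minus strand at chr5:122049852-122050101.
Rorb: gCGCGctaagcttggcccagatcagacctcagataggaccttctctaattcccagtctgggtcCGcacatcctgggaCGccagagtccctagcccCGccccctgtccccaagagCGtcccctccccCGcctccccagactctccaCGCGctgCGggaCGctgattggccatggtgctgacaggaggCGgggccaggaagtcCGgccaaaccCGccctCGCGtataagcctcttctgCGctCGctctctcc
Eomes: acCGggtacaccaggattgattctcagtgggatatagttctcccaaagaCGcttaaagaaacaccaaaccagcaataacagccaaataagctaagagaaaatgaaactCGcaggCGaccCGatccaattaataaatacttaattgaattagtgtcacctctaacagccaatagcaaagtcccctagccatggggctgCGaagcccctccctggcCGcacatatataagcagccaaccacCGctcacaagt
Cux2: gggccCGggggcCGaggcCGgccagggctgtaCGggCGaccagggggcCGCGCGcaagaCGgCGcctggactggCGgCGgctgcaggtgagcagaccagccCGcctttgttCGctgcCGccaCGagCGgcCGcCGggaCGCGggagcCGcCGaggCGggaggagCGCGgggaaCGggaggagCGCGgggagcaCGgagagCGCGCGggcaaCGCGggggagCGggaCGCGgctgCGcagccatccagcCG
The Cux2 stretch held 40 CpG and 80% G+C, the Rorb stretch 18 CpG and 66% G+C, and the Eomes stretch 8 CpG and 46.4% G+C, where the median of 32851 mouse promoters was 6 CpG and 52.4% G+C. Rorb and Cux2 each had a second promoter, not printed here. That of Rorb (chr19:19001118-19001367) held 4 CpG and 39.2% G+C, and that of Cux2 held 3 CpG and 55.2% G+C. Motifs that members of these protein families are known to bind were searched on both strands in the 12 promoters of the 9 genes. ATCGAT, read by Cux factors, was found only in the second Cux2 promoter (chr5:122047826-122048075), and in 0.728% of all promoters. None of the 12 held the T-box motif AGGTGTGA (1.12% of all promoters), the octamer ATGCAAAT of POU factors (1.6%) or the ROR half-site AGGTCA (14%). The motifs do not overlap one another, and a match or its absence says only which letters are in the window.

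Of the 18 probes, 17 were well above background on every array, the exception being the dimmest of the 3 Cux1 probes, which was not on Sham male. The 75th percentile lay at processed signals of 795 to 810 on the Sham arrays and 867 to 871 on the TiO2-H arrays, and 56.2% to 61.2% of non-control spots were well above background. Probes spotted 10 times gave a spot-to-spot SD of 0.09 to 0.10 (log2) above background, and each probe of the 9 genes had a single spot. Xist, the RNA of the inactive X chromosome, had a processed signal of 17.9 on Sham male, 276 on Sham female, 347 on the array labelled TiO2-H male and 5.36 on that labelled TiO2-H female. The Y-linked Eif2s3y gave 3519, 419, 6.40 and 4345 and Ddx3y gave 1418, 142, 7.18 and 1783 in the same order, so both TiO2-H arrays went against their sex labels. Sham female had both Y-linked genes well above background as well as Xist, so its label was not clear-cut either. The sex label is therefore kept only as the name of an array, and each comparison within a label was repeated against the Sham array of the other label. Both Sham arrays lay in 1 row of the slide and both TiO2-H arrays in the other, and the litters differed too, so that slide row, litter and exposure cannot be told apart.

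The layer factor probes differed between TiO2-H and Sham by about as much as the other probes on the array. In limma over 35626 probes (2 TiO2-H against 2 Sham arrays, Benjamini-Hochberg adjusted), 0 of the 18 probes had an adjusted p under 0.05. The share over all probes was also 0%, and the lowest adjusted p was 0.351 for the layer factors and 0.311 for all probes, so that a count of 0 does not set the layer factors apart. At an unadjusted p under 0.05, 2 of the 18 probes (11.1%) were called, 1 in each direction, beside 13.9% of all probes. The median log2 difference of the 18 probes was 0.09, with 13 above 0 and 5 below, and that of all probes was 0.00, with 50.1% above 0. Over the brightest probe of each of the 9 genes the median was 0.01, with 5 above 0 and 4 below. The median size of the difference was 0.11 both for the 18 probes and for all probes (log2). Over brightest probes it was 0.11 for the 9 genes and 0.09 for all genes.

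**Figure D1:**
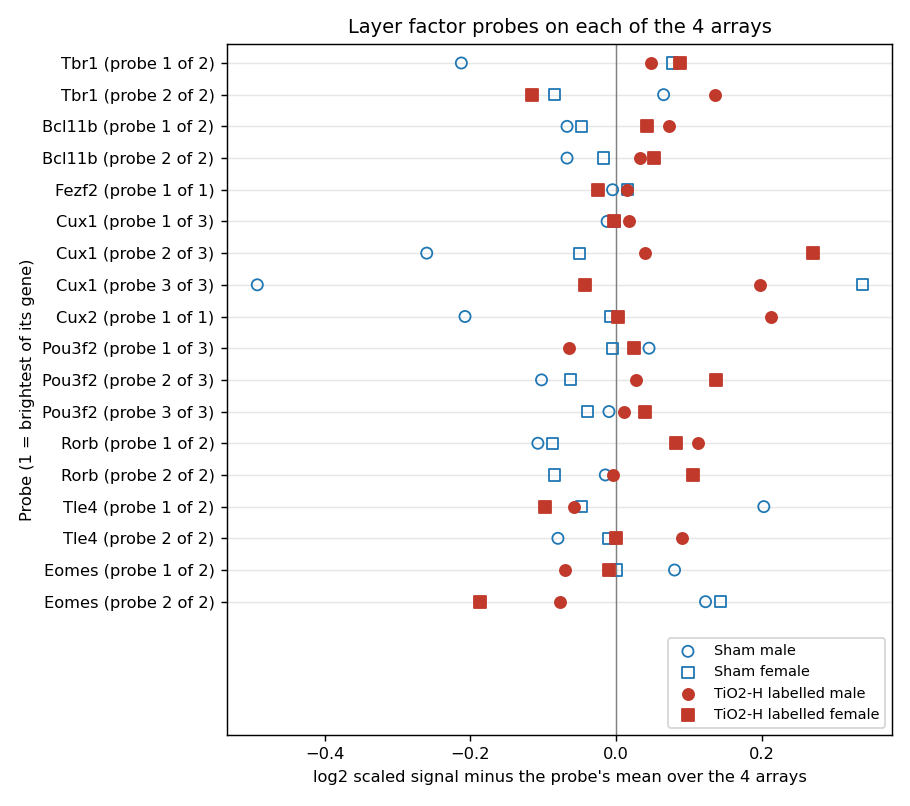
Scaled signal (log2) of each of the 18 probes on the 4 arrays, with the probe's own mean over the arrays subtracted; open blue symbols are the Sham arrays and filled red symbols the TiO2-H arrays (circles labelled male, squares labelled female), 1 array each. The brighter Rorb probe and both Bcl11b probes show both red symbols to the right of both blue ones, and the dimmer Eomes probe shows them to the left, while the brighter Tbr1 and Tle4 probes are set apart mainly by the Sham male array.

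Both TiO2-H arrays lay above both Sham arrays for 9 of the 17 probes well above background on all 4 arrays (52.9%), beside 28.9% of all such probes. These were both Bcl11b probes, both Rorb probes, the middle Cux1 probe, the Cux2 probe, the 2 dimmer Pou3f2 probes and the dimmer Tle4 probe. Both TiO2-H arrays lay below both Sham arrays for 3 of the 17 (17.6%), beside 25.8% of all such probes: both Eomes probes and the brighter Tle4 probe. Counted by the brightest probe of each gene, 3 of the 9 genes lay above and 2 below, beside 30.2% and 26.6% of all genes well above background on every array and read the same way. For 7 of the 18 probes the gap between the 2 Sham arrays was larger than the difference between TiO2-H and Sham.

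Rorb, the orphan nuclear receptor of the granular layer, was 1 of the 2 genes with a probe whose interval did not include 0 in the fit of all 4 arrays without a sex term. Its brighter probe read 0.84 on Sham male, 0.86 on Sham female, 1.06 on the array labelled TiO2-H male and 1.03 on that labelled TiO2-H female (scaled signal, log2). Both TiO2-H arrays were higher than both Sham arrays, and the arrays of each group lay within 0.03 of one another. The log2 difference was 0.19 (95% interval 0.06 to 0.32, limma adjusted p = 0.351), a ratio of 1.14. Its unadjusted p was above 0.05 with sex as a block, as labelled or crossed, and with any 1 array left out, at differences of 0.18 to 0.21. The dimmer Rorb probe, for the same transcript NM_001043354, read -0.75 and -0.82 on the Sham arrays and -0.74 and -0.63 on the TiO2-H arrays, labelled male first. The groups just missed each other there, and the difference was 0.10 (-0.10 to 0.30, limma adjusted p = 0.508), or 0.06 without Sham female, 0.05 without the array labelled TiO2-H female and 0.15 without that labelled TiO2-H male.

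Cux2, a homeodomain factor of upper-layer neurons, had the largest difference among the brightest probes of the 9 genes. Its only probe read -2.05 on Sham male, -1.85 on Sham female, -1.63 on the array labelled TiO2-H male and -1.84 on that labelled TiO2-H female. Sham female and the array labelled TiO2-H female were almost level, and the difference of 0.22 (-0.15 to 0.59, limma adjusted p = 0.467) came with gaps of 0.20 and 0.21 inside the groups. It was 0.12 without Sham male and 0.11 without the array labelled TiO2-H male. On the arrays labelled male the ratio was 1.34 and on those labelled female 1.01. Among 14630 other genes well above background on all arrays, the profiles nearest to that of Cux2 over the 4 arrays, each taken about its own mean, were those of Gm5088, a transcribed pseudogene, Ftdc1 and Matn4, a matrilin of the extracellular matrix. Their Euclidean distances from Cux2 were 0.02, 0.03 and 0.05 (log2 scale). Over only 4 arrays, with so many genes searched, small distances are easily reached, and shared regulation was not tested. Ftdc1 was dim, at processed signals of 42.2 to 61.9.

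Cux1, the paralogue of Cux2, was read by 3 probes whose differences ranged from 0.01 to 0.31. The locus is known to yield a homeodomain factor and, by alternative splicing, a Golgi protein without the homeodomain. The brightest probe, for NM_198602, was nearly level at 3.34, 3.35, 3.37 and 3.35 (Sham male, Sham female, then labelled TiO2-H male and female), a difference of 0.01 (-0.11 to 0.14, limma adjusted p = 0.905). The middle probe, for NM_009986, read -1.63 and -1.42 on the Sham arrays and -1.33 and -1.10 on the TiO2-H arrays. Its difference of 0.31 was the largest of the 18 (-0.08 to 0.70, limma adjusted p = 0.392), with gaps of 0.21 and 0.23 inside the groups, and it was 0.21 without Sham male and 0.20 without the array labelled TiO2-H female. The dimmest probe, also for NM_009986, had processed signals of 36.6 (not well above background), 63.8, 63.0 and 53.5, and its difference of 0.15 had an interval from -0.89 to 1.19 (limma adjusted p = 0.839).

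Pou3f2, a POU-domain factor of upper-layer neurons, also had 3 probes, all for the transcript NM_008899. The brightest read 0.89 and 0.84 on Sham and 0.78 and 0.87 on TiO2-H, with overlapping groups and a difference of -0.04 (-0.22 to 0.13, limma adjusted p = 0.722). The second read 0.47 and 0.51 on Sham and 0.60 and 0.71 on TiO2-H, a difference of 0.16 (-0.03 to 0.35, limma adjusted p = 0.381). The third differed by 0.05 (-0.09 to 0.18), so that probes for 1 transcript lay on both sides of 0.

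**Figure D2:**
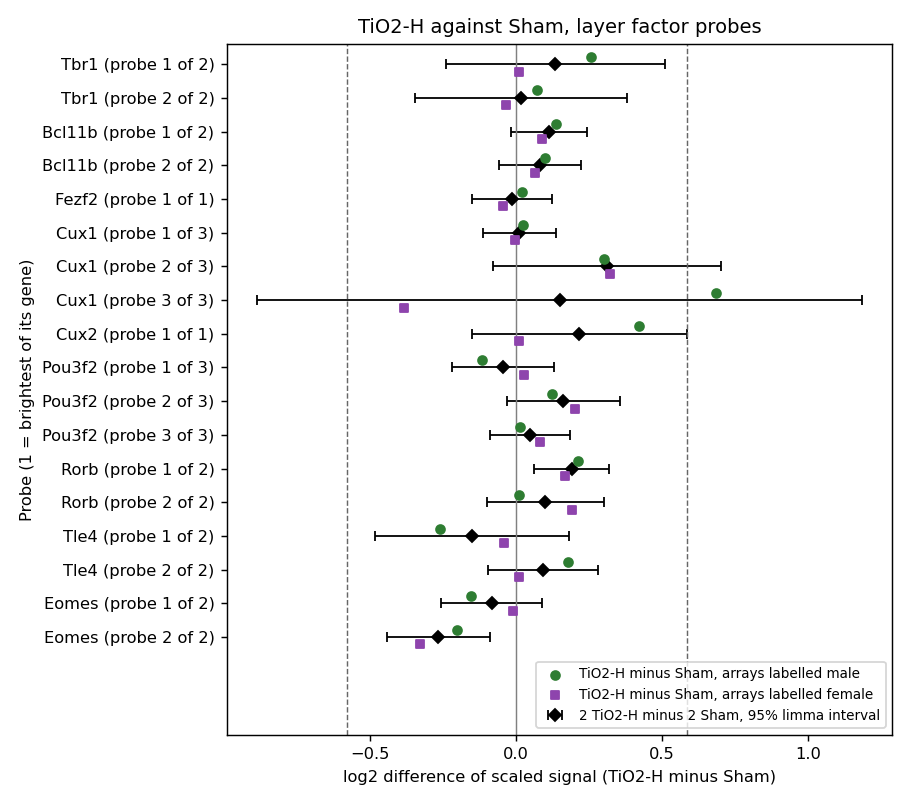
Difference of scaled signal between TiO2-H and Sham (log2) for the 18 probes: black diamonds with bars are the 2-against-2 limma estimates and their 95% intervals, circles and squares the single-array differences for the arrays labelled male and female, and dashed lines the 1.5-fold and 0.67-fold limits. The intervals of 1 Rorb and 1 Eomes probe do not include 0, and 1 circle, that of the dimmest Cux1 probe, lies beyond a limit.

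Among the deep-layer factors, Bcl11b, a zinc finger factor of subcerebral projection neurons, differed by similar amounts on both of its probes. The brighter probe read 2.92 and 2.94 on Sham and 3.06 and 3.03 on TiO2-H, and the other, for NM_001079883, read 2.39 and 2.44 on Sham and 2.49 and 2.51 on TiO2-H. All 4 TiO2-H readings of the gene lay above the Sham readings of the same probe. The differences were 0.11 (-0.02 to 0.24, limma adjusted p = 0.376) and 0.08 (-0.06 to 0.22, limma adjusted p = 0.465). Fezf2, a zinc finger factor that acts upstream of Bcl11b, was level at 0.61, 0.63, 0.63 and 0.59, a difference of -0.01 (-0.15 to 0.12, limma adjusted p = 0.898).

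Tbr1, a T-box factor of the deepest layer, read 3.78 on Sham male, 4.07 on Sham female, 4.04 on the array labelled TiO2-H male and 4.08 on that labelled TiO2-H female. Sham male stood alone and the other 3 arrays lay within 0.05 of one another, so that the difference of 0.13 (-0.24 to 0.51, limma adjusted p = 0.617) became -0.01 without the Sham male array. The dimmer Tbr1 probe overlapped between the groups, at 0.02 (-0.35 to 0.38). Tle4, a Groucho-family corepressor of the same layer, also rested on Sham male: its brighter probe read -1.46 there, -1.71 on Sham female and -1.72 and -1.76 on TiO2-H, a difference of -0.15 (-0.48 to 0.18, limma adjusted p = 0.538) that came to -0.02 without the Sham male array. The dimmer Tle4 probe, also for NM_011600, lay on the other side of 0 at 0.09 (-0.10 to 0.28).

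Eomes, the T-box factor of intermediate progenitors, was the only one of the 7 genes with several probes for which all probes were below 0. Its dimmer probe read -1.71 and -1.69 on Sham and -1.91 and -2.02 on TiO2-H, lower on both TiO2-H arrays than on both Sham arrays. The difference was -0.27 (-0.44 to -0.09, limma adjusted p = 0.351), a ratio of 0.832. With 1 array left out at a time it ranged from -0.32 (without the array labelled TiO2-H male) to -0.21 (without that labelled TiO2-H female). Its brighter probe, for the same transcript NM_010136, read 0.04 and -0.04 on Sham and -0.11 and -0.05 on TiO2-H, and its difference of -0.08 (-0.26 to 0.09, limma adjusted p = 0.52) was no larger than the gap between the Sham arrays and came to -0.04 without Sham male and -0.05 without the array labelled TiO2-H male. Of the other genes with several probes, all probes were above 0 for 4, Bcl11b, Rorb, Cux1 and Tbr1, and Pou3f2 and Tle4 had probes of both signs.

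Within a sex label, where the study's limits of 1.5-fold and 0.67-fold can be read but not tested, 1 of the 18 probes passed on the arrays labelled male, beside 7.37% of 33331 probes, and 0 passed on the arrays labelled female, beside 5.96% of 34068 probes. The 1 probe was the dimmest Cux1 probe, 1.61-fold higher on the array labelled TiO2-H male than on Sham male. On Sham male it was not well above background, at a processed signal of 36.6. The same probe was 1.77-fold higher on Sham female than on Sham male, a comparison without exposure in which 6.32% of 32057 probes passed the limits. The other 17 probes had ratios of 0.835 to 1.34 on the arrays labelled male and 0.797 to 1.25 on those labelled female. Against the Sham array of the other sex label no probe of the 9 genes passed either limit. Between labels, 10 probes were above 0 in both comparisons, 3 were below 0 in both and 5 had opposite signs.

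**Figure D3:**
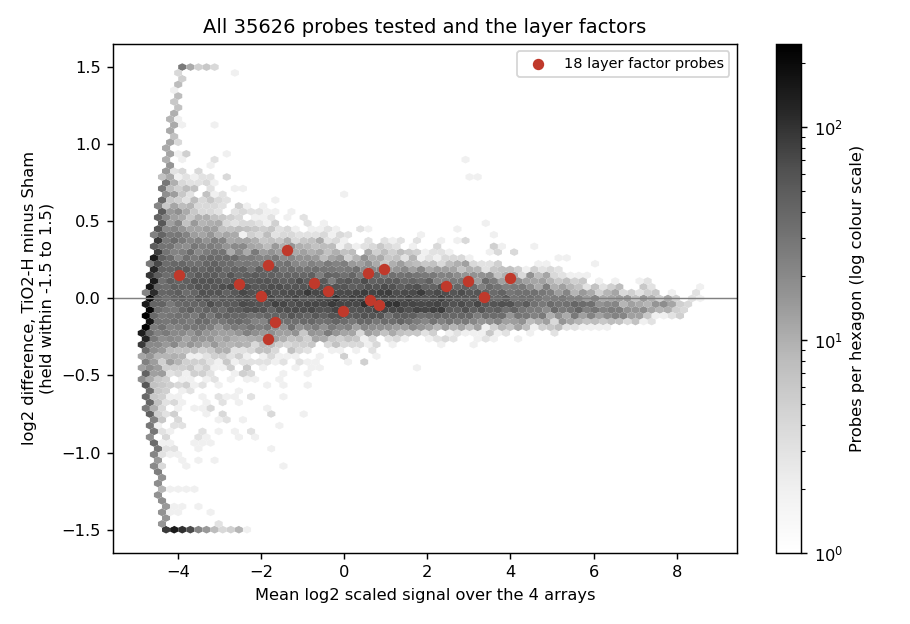
Difference between TiO2-H and Sham (log2) against the mean scaled signal over the 4 arrays for all 35626 probes tested (grey, darker where more probes fall; values beyond 1.5 drawn at the edge) and the 18 layer factor probes (red). All 18 red points lie within the grey cloud at their signal, between -0.27 and 0.31.

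In 4 lists, also chosen with earlier results of these data known, other genes of the developing cortex were read by their brightest probes. Together the lists held 38 genes. On the arrays labelled male and female none of these genes passed the fold limits, beside 3.92% and 3.62% of all genes read the same way. Of the 38 genes, 7 had an unadjusted limma p under 0.05, beside 12.8% of genes. No adjusted p was under 0.05 in any list.

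The deep-layer list had 10 of 12 genes above 0 and a median of 0.11, beside 51.4% above 0 and a median of 0.00 over all genes. These are whole-brain signals, and the share of cells outside the cortex in them was not tested. Both TiO2-H arrays lay above both Sham arrays for 9 of the 12 and below them for 2. Over all genes well above background on every array these shares were 30.2% and 26.6%. Zfpm2, a GATA cofactor of corticothalamic neurons, differed by 0.28 (0.12 to 0.43, limma adjusted p = 0.351), Foxp2, the forkhead factor of deep-layer neurons, by 0.20 (0.05 to 0.35, limma adjusted p = 0.351) and Wnt7b, a secreted signal, by -0.21 (-0.37 to -0.06, limma adjusted p = 0.351). The upper-layer list had a median of 0.01. Of its 7 genes well above background on all arrays, 2 lay above without overlap and 0 below, beside the same 30.2% and 26.6%. Inhba, an activin subunit, differed by 0.14 (-0.00 to 0.29, limma adjusted p = 0.361), Lhx2, a LIM homeodomain factor, by -0.06 (-0.23 to 0.12) and Mef2c, a MADS-box factor of cortical neurons, by 0.05 (-0.08 to 0.17).

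The subplate and Cajal-Retzius list, which holds markers of the earliest-born cortical neurons, had 7 of 8 genes below 0 and a median of -0.04. Over all genes 51.4% were above 0. Both TiO2-H arrays lay below both Sham arrays for 6 genes and above them for 0, beside 26.6% and 30.2% of all genes. The differences were small, with a median size of 0.04 beside 0.09 over all genes. Its widest differences were -0.20 for Lhx1 (-0.41 to 0.02), -0.19 for Ccn2, a matricellular protein of the subplate (-0.33 to -0.05, limma adjusted p = 0.351), and -0.15 for Cplx3, a complexin (-0.53 to 0.23). The list of pallial progenitors and early neurons had 7 of 10 genes below 0 and a median of -0.04, beside the same share over all genes. Of its 9 genes well above background on all arrays, 4 lay below without overlap and 1 above, beside 26.6% and 30.2% of all genes. Neurog2, the proneural factor upstream of Eomes, differed by -0.23 (-0.70 to 0.23), with overlapping groups. Nhlh1, a bHLH factor of newborn neurons, differed by -0.22 (-0.44 to -0.01, limma adjusted p = 0.356) and Neurod6, a bHLH factor of postmitotic cortical neurons, by 0.13 (-0.00 to 0.26).

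**Figure D4:**
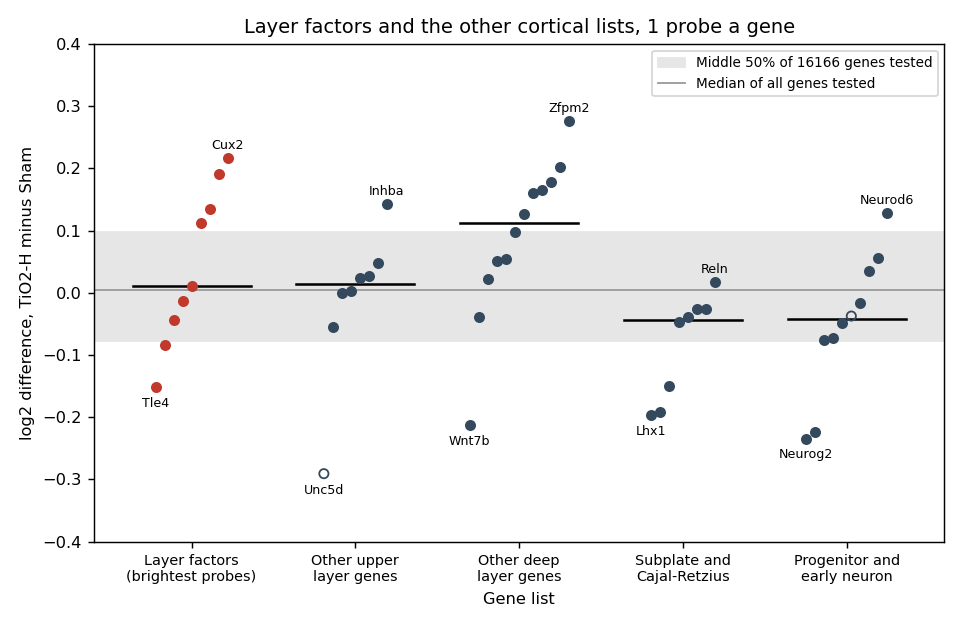
Difference between TiO2-H and Sham (log2) for the brightest probe of each gene, in the 9 layer factors (red) and the 4 lists of other cortical genes (dark; open where the probe was not well above background on every array), with each list's median as a black bar and the interquartile range of all 16166 genes tested as a grey band. The layer factors spread from -0.15 (Tle4) to 0.22 (Cux2) around a median of 0.01, and the bar of the deep-layer list, at 0.11, is the highest.

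Markers of other cells and regions also differed between the groups. The sum of the linear scaled signals (processed signal over the 75th percentile) of 3 microglial markers was 11.4 to 11.6 on Sham and 12.6 to 12.7 on TiO2-H, that of 3 oligodendrocyte-lineage markers 10.5 on both Sham arrays and 11.7 to 11.9 on TiO2-H, that of 2 endothelial markers 6.36 to 6.73 on Sham and 7.31 to 7.41 on TiO2-H, that of 2 choroid plexus markers 82.4 to 84.8 on Sham and 79.9 to 81.1 on TiO2-H, and that of 2 erythroid markers 60 to 62.5 on Sham and 51.4 to 51.7 on TiO2-H. Within these lists the groups overlapped for Olig2 (0.01), Pecam1 (0.12) and Folr1 (-0.02, log2 differences). The brighter Cldn5 (0.17) made up most of the endothelial sum. The 3 cerebellar markers summed to 34.1 to 34.2 on Sham and 32.8 to 33.0 on TiO2-H. The 3 thalamic markers summed to 4.96 to 5.26 on Sham and 5.53 to 5.57 on TiO2-H, with Lhx9 at 0.23 and Gbx2 at -0.29. The groups overlapped for 3 forebrain markers, at 45.6 to 47.4 on Sham and 45.5 to 46.3 on TiO2-H, for 6 GABAergic markers (32.8 to 34.3 and 33.1 to 33.7) and for 2 mitral cell markers of the olfactory bulb (2.10 to 2.27 and 2.16 to 2.24). They also overlapped for 4 radial glia and astrocyte markers (190 to 198 and 196 to 203), of which 2 were higher and 2 lower without overlap. Of 5 neuronal markers, Map2 (0.16), Snap25 (0.19) and Dcx (0.15, log2 differences) were higher on both TiO2-H arrays than on both Sham arrays and Tubb3 (-0.05) lower, with a median of 0.15, while their sum, in which the bright Stmn2 and Tubb3 weigh most, overlapped at 326 to 329 on Sham and 324 to 337 on TiO2-H. The 6 striatal markers summed to 17.8 to 18 on Sham and 17.2 to 17.7 on TiO2-H. The liver markers Alb and Apoa1 were not well above background on any array, and the pituitary hormone gene Gh was well above background only on the array labelled TiO2-H male. The part of neuronal, regional or other cellular makeup in the differences of Rorb, Bcl11b, Eomes and the lists of other cortical genes was not tested.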

How the data were processed

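RNA from 4 pools of whole newborn brain was hybridised, 1 pool per array, to Agilent SurePrint G3 mouse one-colour arrays (Cy3). The authors extracted the spots with Agilent Feature Extraction 10.10.1.1, and the deposited scanner files hold the processed signal intensity after background subtraction, with its error and flags. The deposited series table held the same intensity values, with no scaling between arrays. From these files, control spots and outlier spots were left out, spots of 1 probe were averaged, signals were divided by the array's 75th percentile, values of spots not well above background were raised to at least the lowest signal that was well above background on that array, and log2 was taken. The files carry no gene names or probe sequences. Probes were named through RefSeq accessions, of which 98% of 21887 matched. The 35626 probes that passed the detection flag (well above background) on 1 or more arrays were fitted with limma 3.58.1 in R 4.3.3 (TiO2-H against Sham, no sex term, Benjamini-Hochberg over all probes), and the fit was tested on simulated data. In the simulated data an adjusted p under 0.05 found 0% of 1.5-fold and 31.5% of 2-fold changes put into 200 probes. With 2 arrays a group the adjusted p thus has little power for changes of the size seen here. Single arrays were compared within a sex label by 1.5-fold and 0.67-fold limits, without a test. Each array holds a pool, so p-values measure only the spread between these 4 pools. Since the pools of a group share their dams, p-values and intervals do not measure the spread between litters. Arrays have no read depth, and their number limits the precision.

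The rule for named genes was: every probe of the 9 layer factors, from each of 4 lists of other cortical genes those whose brightest probe passed a fold limit and the 3 with the largest difference among probes well above background on all arrays, 3 sex-linked genes as a check of the labels, and the 3 genes whose profile over the arrays was nearest to the layer factor with the largest difference among brightest probes. The upper-layer list leaves out 1 gene that is not reported here. The layer factors and lists were chosen with earlier results of these data known. Alternatives covered scaling, background correction (normexp on median signals, offset 50), filters, floors, probe choice, sex as a block and leaving out each array.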

Additional observations from a re-analysis of the deposited data

Results flagged for a closer look

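On 10 of the 33 probes of named genes the arrays labelled male and the arrays labelled female gave TiO2-H minus Sham differences of opposite sign, with 1 array on each side and no test of the difference between the labels. Of these, 5 were layer factor probes. For the dimmest Cux1 probe the labelled female difference minus the labelled male difference was -1.07 (log2), from 0.68 on arrays labelled male, where the Sham array was not well above background, and -0.38 on arrays labelled female. For the dimmer Tbr1 probe it was -0.11, for the Fezf2 probe -0.066, for the brightest Cux1 probe -0.027 and for the brightest Pou3f2 probe 0.15, with each single difference between -0.12 and 0.07. Among the other cortical genes, Lhx2 gave -0.13 and Cplx3 -0.42. The sex-linked genes used as a check of the labels gave -7.11 for Xist, 10.2 for Eif2s3y and 9.20 for Ddx3y, with at least 1 array not well above background in each.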

How the results depend on the processing

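Under the alternatives tried, 0 of the layer factor probes had an adjusted p under 0.05, as 0 of all probes did, with any 1 array left out too. This says nothing of stability, since the design has little power and leaving out 1 array leaves 1 in its group. With sex as labelled as a replicate block the count was also 0, and in this balanced layout a block changes the error but not the difference. At an unadjusted p under 0.05, limma called 2 of the 18 probes (13.9% of all probes) without a block, Rorb and Eomes. The dimmer Eomes probe and the middle Cux1 probe were called with sex as labelled as a block (8.99% of all probes), and the same Eomes probe and Cux2 with sex crossed within TiO2-H (8.7%). The count was 7 without scaling (23.3% of all probes) and 1 with no filter (5.36%). With 1 array left out (9.96% to 10.7% of all probes) it was 0 without Sham male, 2 without Sham female (the brighter Tbr1 and Tle4 probes), 1 without the array labelled TiO2-H male and 0 without that labelled TiO2-H female. Without scaling the median of all probes moved to 0.12, and differences are best read relative to it. There Fezf2 turned to 0.10, the brightest Pou3f2 probe to 0.07 and the brighter Eomes probe to 0.031. Normexp background correction turned the dimmest Pou3f2 probe to -0.019. With 1 array left out at a time, the brighter Tbr1 probe ranged from -0.012 (without Sham male) to 0.28, the dimmer Tbr1 probe from -0.11 (without the array labelled TiO2-H male) to 0.14, with -0.05 without Sham female, the dimmest Cux1 probe from -0.26 (without Sham male) to 0.56, the brightest Pou3f2 probe from -0.089 to 0.00 (without the array labelled TiO2-H male) and Fezf2 from -0.035 to 0.01 (without the array labelled TiO2-H female). Of the 144 single values under settings that change the estimate (scaling, normexp or an array left out), 134 kept their direction. On the arrays labelled male, the count of probes past the fold limits was 0 with quantile normalization, normexp, a filter on every array, 1 probe per gene, a 2-fold limit or the Sham array of the other sex label, and on the arrays labelled female it was 0 under every alternative. The causes were not tested. Spots not well above background, as for the dimmest Cux1 probe on Sham male, had a spot-to-spot SD of 0.30 to 0.42 (log2).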
